A study of Mus musculus with 7 samples.

Results

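The contractile apparatus genes described here are 10 genes: *Acta2*, *Actg2*, *Myh11*, *Tagln*, *Cnn1*, *Tpm1*, *Tpm2*, *Des*, and the troponin T genes *Tnnt1* and *Tnnt2*, out of 30406 genes counted in every library of a single-cell study of seminal vesicles from mice. They were chosen from measured values: their unique molecular identifier counts (UMIs, 1 per captured transcript molecule) were high in cells with a UMI of the muscle genes *Hhip*, *Cnn1* or *Myl9* and differed from those in pericytes (*Rgs5*) and fibroblasts (*Col1a1*, *Col1a2*), and the young and the old individually loaded mice were set against the other mice. The levels by cell class and the comparison of those mice with the rest are therefore given as a description, without a test. The tests below are of age, diets and library sets, contrasts that the rule for the choice does not name. The mice tested did supply part of the levels used, and earlier results of these data were known.

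The study profiled 23 wild-type male mice in 7 libraries. A pool of 10 C57BL/6J mice on chow (the aging pool) held 2 mice at 3 months, and 2 untreated and 2 rapamycin-treated mice at each of 20 and 28 months. A pool of 8 FVB/NJ mice at 3 months (the diet pool) held 2 mice on control food, 2 on caloric restriction, 2 on high fat and 2 on low protein food, and 3 further FVB/NJ mice at 3 months were loaded singly, 1 per diet except caloric restriction (the diet single-mouse libraries). The last libraries each came from 1 FVB/NJ mouse on the control diet, a young individual (3 months) and an old individual (18 months), so that age cannot be told apart from the animal in that pair.

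Smooth muscle contracts when myosin light chain kinase, activated by calcium and calmodulin, phosphorylates the light chains of a smooth muscle myosin that pulls on actin filaments, and the muscular wall of the seminal vesicle empties the gland at ejaculation. Striated muscle instead uses the troponin complex, in which troponin C binds calcium, troponin I inhibits and troponin T anchors the complex on tropomyosin, and smooth muscle is taught as a muscle without troponin. *Tnnt1* encodes the slow skeletal and *Tnnt2* the cardiac troponin T, and they set these members apart from the smooth muscle genes. Of the others, *Acta2* and *Actg2* encode the vascular and the enteric smooth muscle actin, *Myh11* the smooth muscle myosin heavy chain, *Tagln* (transgelin) and *Cnn1* (calponin) actin-binding proteins, *Tpm1* and *Tpm2* tropomyosins, and *Des* the muscle intermediate filament desmin.

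In the GENCODE annotation of GRCm38 (mm10), the build that the submitters name, *Tnnt2* lay on chromosome 1 at 135836354 to 135852260 on the plus strand, and *Tnnt1* on chromosome 7 at 4504570 to 4516382 on the minus strand. The smooth muscle actins lay apart as well, *Acta2* on chromosome 19 at 34241090 to 34255590 and *Actg2* on chromosome 6 at 83512905 to 83536265, both on the minus strand, and *Tpm2* on chromosome 4 at 43514711 to 43523765 on the minus strand. Promoter sequences from RefSeq (GRCm38.p6) matched 7 of the 10 members with 8 start sites, all but *Actg2*, *Myh11* and *Tagln*. The 250 bases before the start site are shown for the members that rose together under caloric restriction and for the other troponin T gene, 5′ to 3′ on the strand of the gene, with the MCAT element in capitals (CATTCC, or GGAATG where it lies on the other strand), the sequence bound by TEAD factors and known from the *Tnnt2* promoter. For *Tnnt2*, the first of 2 start sites is given.
Tnnt2 (chr1:135836084-135836333, plus strand): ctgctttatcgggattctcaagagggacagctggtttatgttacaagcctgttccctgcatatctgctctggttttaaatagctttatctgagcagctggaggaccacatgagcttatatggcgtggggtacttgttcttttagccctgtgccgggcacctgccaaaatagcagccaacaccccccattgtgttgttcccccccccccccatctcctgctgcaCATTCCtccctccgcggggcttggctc
Tnnt1 (chr7:4515976-4516225, minus strand): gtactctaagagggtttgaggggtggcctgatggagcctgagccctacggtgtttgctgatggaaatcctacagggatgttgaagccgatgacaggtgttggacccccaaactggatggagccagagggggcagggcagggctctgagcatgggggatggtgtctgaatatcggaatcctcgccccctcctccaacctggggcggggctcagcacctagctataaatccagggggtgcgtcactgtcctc
Acta2 (chr19:34255374-34255623, minus strand): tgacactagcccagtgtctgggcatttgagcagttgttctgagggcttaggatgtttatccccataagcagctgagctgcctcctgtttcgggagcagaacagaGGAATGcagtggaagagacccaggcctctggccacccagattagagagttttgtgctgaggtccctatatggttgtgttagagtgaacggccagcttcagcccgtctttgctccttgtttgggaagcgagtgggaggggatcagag
Tpm2 (chr4:43523555-43523804, minus strand): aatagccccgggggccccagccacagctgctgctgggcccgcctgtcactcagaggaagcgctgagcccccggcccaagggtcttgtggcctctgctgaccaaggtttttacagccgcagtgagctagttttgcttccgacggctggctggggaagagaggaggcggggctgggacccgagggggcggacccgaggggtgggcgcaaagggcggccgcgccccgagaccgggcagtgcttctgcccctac
The element began 27 bases before the start site of *Tnnt2* and 146 bases before that of *Acta2*, and no match was found in the windows of *Tnnt1* and *Tpm2*. It was present in 3 of the 8 member windows, the other being that of *Tpm1*, and in 12.6% of 32851 windows of the same length. The CArG box, to which serum response factor binds, was searched by its strict consensus on both strands and was in none of the 8 windows and in 1.47% of all windows. The strict pattern does not count stretches with a mismatch, such as ccctatatgg and ccttgtttgg in the *Acta2* window. A window without a match may therefore still hold a site. The start sites are those of RefSeq. By the GENCODE positions above, the *Tnnt1* window lies wholly within the gene, and the *Acta2* and *Tpm2* windows lie mostly within theirs. Sequence further upstream of these genes was not searched. A match describes the letters of the window and is not a measured binding site.

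After filtering, 40342 of 53352 barcodes were kept, with 36469 to 4368719 UMIs in muscle-gate cells for the 19 mice that had at least 10 such cells. A cell was put in the gate whose genes had the most UMIs in it. This gave 5601 muscle-gate cells, 490 pericyte-gate cells and 4272 fibroblast-gate cells, and the 4901 muscle-gate cells of the young (2499) and the old individual (2402) outnumbered the 5 to 145 of each other mouse. The gates were not sharp. Of the 8614 cells with any UMI of *Hhip*, *Cnn1* or *Myl9*, 3013 had as many or more UMIs of another gate, and 3459 of the 5601 muscle-gate cells held a *Col1a1* or *Col1a2* UMI and 432 an *Rgs5* UMI. The young and the old individual stood apart from the seminal vesicle label: the summed level of 6 secretory genes (*Svs5* and others) was 10.96 and 6.05 CPM (counts per 1e+06 UMIs) over all their cells, against 78371 to 632475 CPM in the other 21 mice, while 8 genes of epididymal epithelium (*Lcn8*, *Lcn9*, *Gpx5* and others) summed to 41737 and 71641 CPM, against 0 to 601 CPM. Values of these mice are therefore given apart where groups are compared, while medians over 19 mice, ratios between gates and likeness over sums include them. Of the kept barcodes, 177 were found in more than 1 library and 20 in both the young and the old individual.

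Within muscle-gate cells, the smooth muscle genes were abundant and the troponin T genes about 1 to 2 orders of magnitude lower. Because these libraries count 3′ ends, a UMI count does not grow with the length of the transcript, and the order below is of transcripts captured. The median over 19 mice was 10504 CPM for *Acta2*, 9179 CPM for *Tagln*, 3965 CPM for *Tpm2*, 3739 CPM for *Tpm1*, 2471 CPM for *Myh11*, 1497 CPM for *Des*, 1240 CPM for *Cnn1*, 946 CPM for *Actg2*, 122 CPM for *Tnnt1* and 114 CPM for *Tnnt2*. Several neighbours in this order could not be separated across mice: *Acta2* was above *Tagln* in 12 of 19 mice, *Tpm2* above *Tpm1* in 11, *Des* above *Cnn1* in 10 and *Tnnt1* above *Tnnt2* in 9. In contrast, *Tagln* was above *Tpm2*, and *Actg2* above *Tnnt1*, in 19 of 19 mice. How reads shared by the similar actin genes (*Acta1*, *Acta2*, *Actg2*, *Actb*) were assigned is not given in the sources used here, so part of a low actin count may come from an abundant relative.

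The smooth muscle members were highest in muscle-gate cells and lower, but present, in pericyte-gate cells. All 10 members were higher in muscle-gate than in pericyte-gate cells in each of the 11 mice with both gates, where the median ratio was 8.60 for *Acta2*, 9.44 for *Tagln*, 7.47 for *Myh11*, 6.56 for *Des* and 2.76 for *Tpm1*. *Acta2* in pericyte-gate cells ran from 593 to 2635 CPM, with a median of 832 CPM, in 9 of the other mice, and was 3232 CPM in the young and 1457 CPM in the old individual. *Cnn1*, itself a gate gene, was listed at 0 in the pericyte-gate cells of 6 of those 9 mice. Fibroblast-gate cells carried less, with median ratios of 65.1 for *Acta2* and 44.0 for *Tpm2* over 19 mice and 95.1 for *Myh11* over the 16 mice with a UMI there, but 9.76 for *Tpm1*, 7.86 for *Des* and 6.09 for *Tnnt1*. The ratios were thus smallest for *Tnnt1*, *Des* and *Tpm1* against fibroblast-gate cells and for *Tpm1* against pericyte-gate cells. *Tnnt1* and *Tnnt2* were not higher in muscle-gate than in fibroblast-gate cells in the second aging pool mouse of 3 months, nor *Tnnt2* in the first rapamycin-treated mouse of 28 months, where muscle-gate cells had 0 UMIs of the gene.

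**Figure D1:**
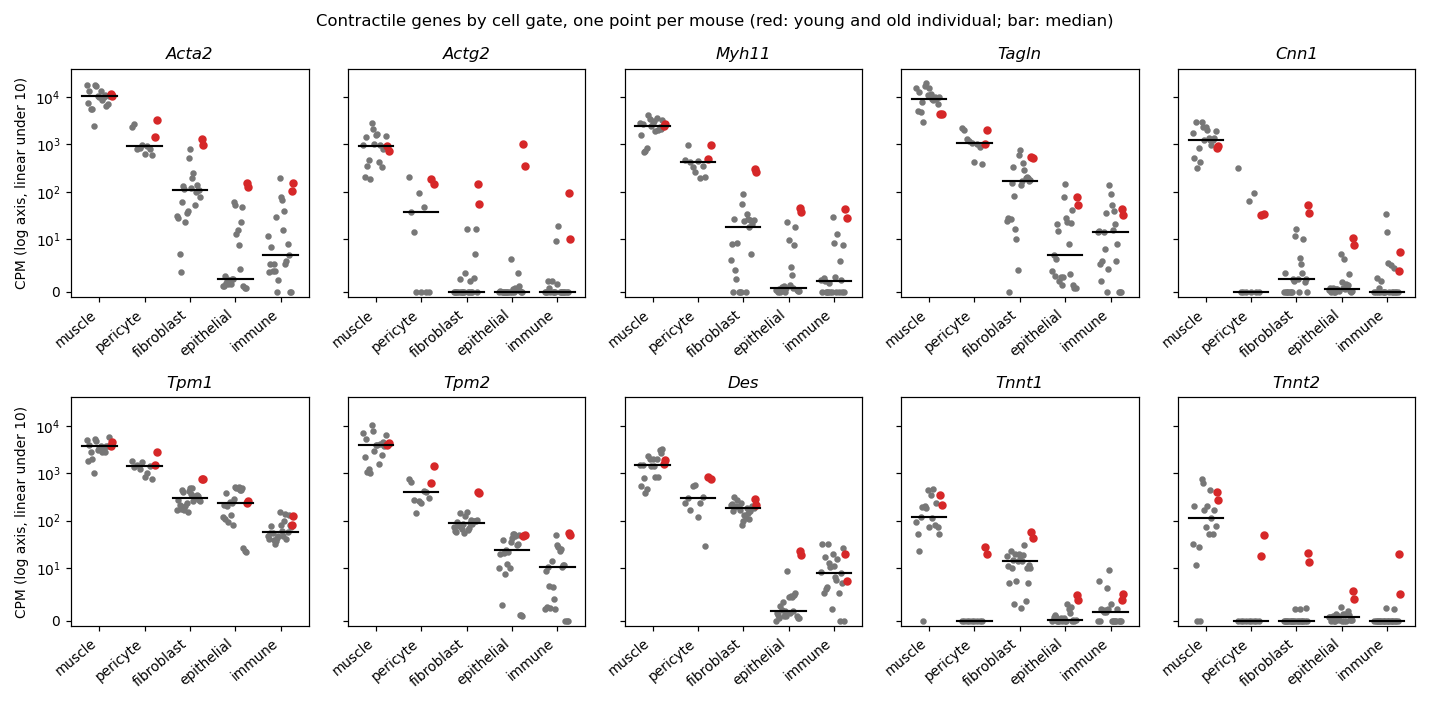
Level of each of the 10 genes (CPM, on a log axis that is linear under 10) in the muscle, pericyte, fibroblast, epithelial and immune gate, with 1 point per mouse with at least 10 cells, the young and the old individual in red, and a bar at the median. By the median, every gene is highest in the muscle gate, *Tnnt1* and *Tnnt2* fall to about 0 in pericyte-gate cells, and *Actg2* in the epithelial gate stands out in the red points.

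Neither troponin T gene was detected in pericyte-gate cells outside the young and the old individual. *Tnnt1* and *Tnnt2* had 0 UMIs in the pericyte-gate cells of all 9 other mice, among 304835 UMIs, which allows up to 9.84 CPM for each. In the young and the old individual, pericyte-gate cells held 19.4 and 27.5 CPM of *Tnnt1* and 48.6 and 18.3 CPM of *Tnnt2*, from 4 to 10 UMIs each. Fibroblast-gate cells told the genes apart. *Tnnt1* was found in the fibroblast-gate cells of all 21 other mice, at 2.38 to 31.3 CPM (median 11.8), whereas *Tnnt2* was at 0 in 18 of them and at most 2.36 CPM in the rest. Immune-gate cells, taken as the background of free RNA, held a median of 1.61 CPM of *Tnnt1* and 0 CPM of *Tnnt2* in the same 21 mice. In the young and the old individual, *Acta2* reached 155 and 106 CPM in immune-gate cells, against a median of 5.86 CPM in the other mice, the highest of which was 195 CPM.

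Fibroblast-gate cells of the young and the old individual held more of 8 of the 10 members than those of all 21 other mice. *Tagln* and *Des* were the exceptions. How many of all genes lie above all 21 mice in this way was not counted, and the choice of members used this contrast. *Acta2* was 981 CPM in the young and 1289 CPM in the old individual, and 3.76 to 799 CPM with a median of 98.3 CPM in the others. *Myh11* was 264 and 302 CPM, and 0 to 88.2 CPM in the others. Muscle-gate cells made up 26.4% to 27.3% of cells in these 2 mice and 0.517% to 20.2% in the others, and the part of that share and of the immune-gate background in the fibroblast values was not tested.

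Muscle-gate cells of the young and the old individual carried more troponin T than those of most other mice. *Tnnt2* was 275 CPM in the young and 410 CPM in the old individual, from 2852 UMIs together. In the other 17 mice it ran from 0 to 748 CPM with a median of 78.3 CPM, and 14 of them lay below both individuals and 3 above both. *Tnnt1* was 213 CPM in the young and 354 CPM in the old individual, against 0 to 457 CPM with a median of 114 CPM, and 13 of the 17 mice lay below both and 2 above both. For both genes the ranges overlapped, and no p is given because the genes were chosen with this contrast in view. The means of the individuals were 4.37 times the median of the other mice for *Tnnt2* and 2.48 times for *Tnnt1*. For the other members except *Tagln* they were between 0.642 and 1.21 times. The *Tnnt2* median is the value of 1 mouse, the low protein single-mouse library, with 38301 UMIs of all genes in 19 muscle-gate cells. It rests on few *Tnnt2* UMIs, so the multiple for that gene is loose. The aging pool sums held 36469 to 86871 UMIs, where 0 UMIs of a gene is a weak limit. Of the 17 other mice, 6 were C57BL/6J (the aging pool), with *Tnnt2* at 207 CPM in 1 mouse and at most 31.5 CPM in the rest. Pooled over UMIs, the 2 genes together gave 634 CPM in the individuals and 620 CPM in the 17 mice. The caloric restriction mice supplied 1128 of the 1599 UMIs of those 17. The part of strain in these differences was not tested.

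*Tagln* went the other way. It was 4387 CPM in the young and 4457 CPM in the old individual, and 2979 to 19467 CPM with a median of 9869 CPM in the other 17 mice, 16 of which lay above both. Set against the actin of the same cells, the ratio of *Tagln* to *Acta2* UMIs was 0.411 and 0.392 in the individuals, below all 17 other mice, which ran from 0.667 to 1.54. *Acta2* itself was similar, at 10679.8 and 11382 CPM against a median of 9894 CPM. The 2 individuals were each a library of their own. The pools were counted against a reference in which 597 shared genes carry other names. Cells of the individuals also carried epididymal transcripts and almost no secretory ones. Effects of the animal, of the library and of the organ sampled therefore cannot be told apart. Stress genes of dissociation (*Fos*, *Junb*, *Atf3* and 7 others) also summed higher in muscle-gate cells of the individuals, at 23852 and 22065 CPM, than in the other mice, at 4736 to 20533 CPM, and their part in these differences was not tested.

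**Figure D2:**
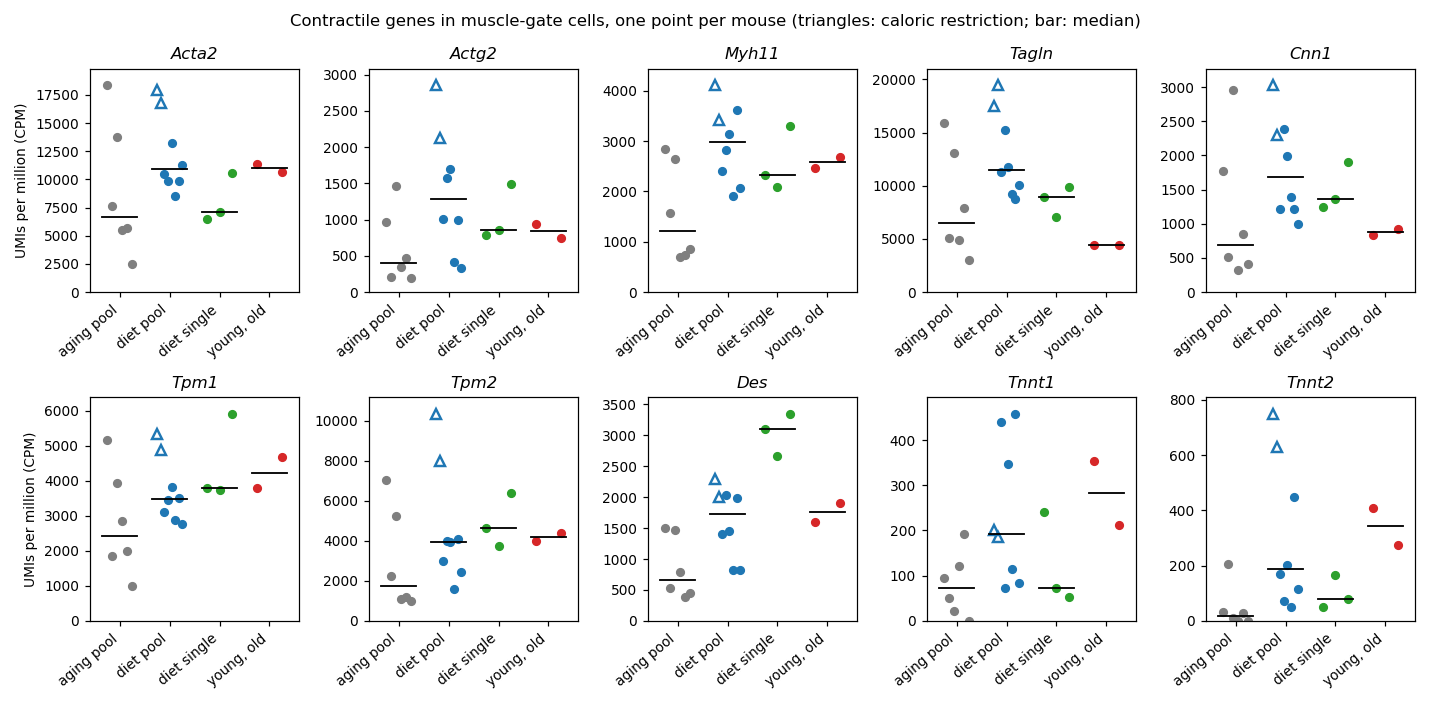
Level of each gene in muscle-gate cells (CPM, axis from 0), with 1 point per mouse in the aging pool (6 mice), the diet pool (8), the diet single-mouse libraries (3) and the young and old individual (2), and a bar at the median; open triangles are the caloric restriction mice. The triangles are the 2 highest diet pool points for *Acta2*, *Actg2*, *Tpm1*, *Tpm2*, *Tagln* and *Tnnt2* but not for *Tnnt1*, and the red points lie low for *Tagln*.

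Other genes of the contractile machinery put these levels in context. The most abundant of a list of 28 smooth muscle regulators and structural genes were *Myl6*, a light chain of myosin (5981 and 5177 CPM in the young and the old individual, median 5152 CPM in the other mice), *Csrp1*, a LIM protein of the cytoskeleton (3258 and 3284 CPM, median 3519 CPM), and *Myl9*, the regulatory light chain and a gate gene (5254 and 5186 CPM, median 2935 CPM). Myocardin (*Myocd*), the coactivator of the smooth muscle program, was low at 91.7 and 75.3 CPM in the individuals (354 and 329 UMIs). It was 0 to 46.1 CPM in the other mice, from 0 to 23 UMIs each, and the 2 ranges did not overlap. *Myocd* was named after its values were seen, and how many of all genes lie apart in this way was not counted. Non-muscle paralogs were plentiful in the same cells, with *Actb* at 8077 and 7559 CPM (other mice, median 4366 CPM), *Actg1* at 2700 and 2889 CPM (3457 CPM) and *Vim* at 1613 and 944 CPM (1106 CPM).

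The partners of troponin T were few. Summed over the muscle-gate cells of the young and the old individual, *Tnnt1* and *Tnnt2* gave 5221 UMIs (634 CPM, 95% Poisson interval 617 to 652), whereas the troponin C genes *Tnnc1* and *Tnnc2* gave 123 UMIs (14.9 CPM, 12.4 to 17.8), the troponin I genes *Tnni1*, *Tnni2* and *Tnni3* gave 215 (26.1 CPM, 22.7 to 29.9) and the fast skeletal *Tnnt3* gave 179 (21.7 CPM, 18.7 to 25.2). The 2 caloric restriction mice had a different balance. There troponin T was 891 CPM (840 to 945) and troponin C, almost all of it the fast skeletal *Tnnc2*, reached 233 CPM (207 to 261), while troponin I stayed at 4.74 CPM (1.74 to 10.3). In the remaining 15 mice, pooled troponin T was 358 CPM (327 to 392), troponin C 30.4 CPM (21.7 to 41.5) and troponin I 11.4 CPM (6.39 to 18.8). Taken per mouse, their medians were 197, 21.3 and 0 CPM, with troponin I at 0 in 9 of the 15 mice. These intervals cover counting error only. Striated myosin heavy chains were at or near 0: *Myh1*, *Myh2*, *Myh4*, *Myh6* and *Myh7* together gave 2 UMIs over all 19 mice, and *Ttn* gave 4.

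**Figure D3:**
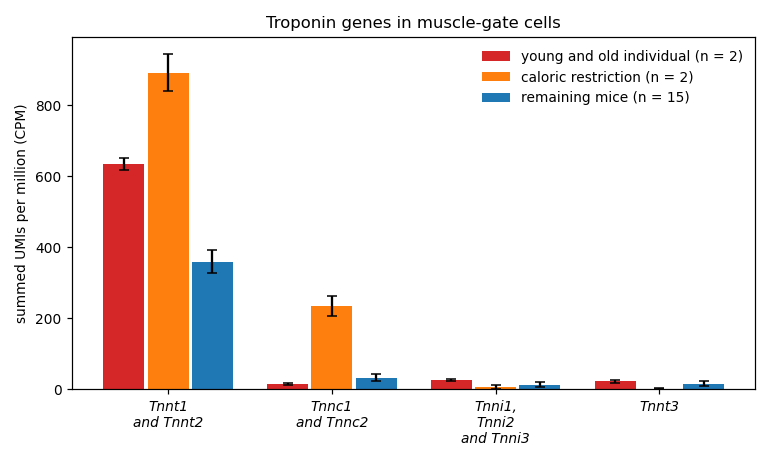
Summed level (CPM, axis from 0) of the troponin T genes *Tnnt1* and *Tnnt2*, the troponin C genes, the troponin I genes and *Tnnt3* in muscle-gate cells of the young and old individual (red), the 2 caloric restriction mice (orange) and the 15 remaining mice (blue); bars are pooled UMIs over pooled totals and whiskers the 95% Poisson interval of the count. The troponin T bars are the highest in each group, and only the caloric restriction mice have a troponin C bar above 200 CPM.

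Other genes of the striated list were measured in the same cells. A place on that list does not mean that a gene is limited to striated muscle. *Acta1*, the skeletal muscle actin and the most abundant of the 26 striated genes listed, was 134 and 144 CPM in the individuals and 0 to 2374 CPM, median 270 CPM, in the other mice. *Pln* (phospholamban), which restrains the calcium pump of the sarcoplasmic reticulum, was 43.5 and 25.2 CPM against a median of 66.7 CPM. *Tnnc2* was 14.2 and 12.8 CPM against a median of 34.4 CPM. *Casq2*, the cardiac calcium-storage protein, had the opposite pattern at 105 and 117 CPM (404 and 509 UMIs) against 0 to 57.6 CPM (0 to 10 UMIs each), again without overlap. It too was named after its values were seen.

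UMIs of the troponin T genes were found in a minority of muscle-gate cells, and at these levels a cell with 0 UMIs does not show a lack of expression. With cells thinned to 1500 UMIs, 20.9% of 950 cells of the young individual held a *Tnnt2* UMI (exact 95% interval 18.4 to 23.7) and 39.5% of 1293 cells of the old individual (36.8 to 42.2), and 23.1% (20.4 to 25.9) and 40.9% (38.2 to 43.6) held a *Tnnt1* UMI. Without thinning the *Tnnt2* shares were 21.7% and 34.1%, at median depths of 1323 and 1551 UMIs. Thinning left out 1549 and 1109 shallower cells. Immune-gate cells of the same mice, thinned likewise, held a *Tnnt2* UMI in 1 of 87 and 1 of 63 cells, or 1.15% and 1.59%, from unthinned median depths of 1262.5 and 1348 UMIs. The shares in muscle-gate cells were above this background in both mice. This is a description only, because the genes were chosen by their levels in these cells. The intervals are over cells of 1 mouse and do not cover differences between mice. In the caloric restriction mice, 37.3% of 142 cells (29.4 to 45.8) and 29.9% of 134 cells (22.3 to 38.4) held a *Tnnt2* UMI, above the 3.70% to 17.5% of the other 6 diet pool mice. Their *Tnnt1* shares, 19.0% and 16.4%, lay inside the 0% to 29.1% of those mice.

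The troponin genes tended to occur in the same cells and in cells with *Actg2*, a split chosen after the values were seen. In the old individual, 54.3% of cells with a *Tnnt1* UMI also held a *Tnnt2* UMI, against 29.3% of cells without, and in the young individual the shares were 47.0% and 13.1%. The caloric restriction mice had 48.1% against 34.8% and 50.0% against 25.9%. The order was reversed in the second diet pool control mouse (0% against 8.33%) and the second high fat mouse (0% against 4.17%), with 2 and 3 *Tnnt1* cells. Cells with an *Actg2* UMI held a *Tnnt2* UMI in 58.6% of cases in the old and 31.0% in the young individual, and cells without one in 16.8% and 11.1%. The same order was seen in 50.0% against 10.9% and 48.6% against 9.38% of cells of the caloric restriction mice and in 24.3% against 2.38% of cells of the first diet pool control mouse. For *Tnnt1* the shares with and without *Actg2* were 50.8% and 29.2% in the old and 28.5% and 17.7% in the young individual. In the caloric restriction mice they lay closer, at 20.8% and 15.2% and at 21.4% and 10.9%. How the order depends on the total muscle RNA of a cell, or on free *Actg2* RNA, was not tested.

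Over sums by mouse and gate, the genes whose pattern was most like that of *Tnnt1* were *Pgm5*, a component of smooth muscle adhesions (Pearson r of log2(CPM + 10) of 0.936), the myosin light chain kinase *Mylk* (0.917), *Cnn1* (0.917), the kinase *Dmpk* (0.916) and *Fbxl22* (0.915). For *Tnnt2* they were *Cnn1* (0.950), the junctophilin *Jph2* (0.948), *Sh3bgr* (0.940), *Fbxl22* (0.934) and *Optc* (0.933). These values describe 83 sums and 10256 genes, and several sums share a mouse, a library and a depth. The muscle gate is defined with *Cnn1*, and the members were chosen by their levels across these gates. A high r with muscle genes is therefore partly built in. *Tnnt1* and *Tnnt2* had an r of 0.891 with each other. Among the other members, *Tpm2* (0.914) was nearest to *Tnnt1* after *Cnn1*, and *Actg2* (0.913) nearest to *Tnnt2*.

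Caloric restriction was the one diet under which members passed the test. The question was whether muscle-gate sums of the 2 caloric restriction mice differed from those of the 2 control mice of the same pool. The paper states that caloric restriction mice were housed singly and does not give the housing of these controls. Housing and restriction may therefore not be told apart. Muscle-gate sums held 721668 and 544245 UMIs in the caloric restriction mice and 281787 and 55488 UMIs in the controls. *Tnnt2* was 748 and 628 CPM in the caloric restriction mice and 170 and 72.1 CPM in the controls, the last from few UMIs. The groups did not overlap, and *Tnnt2* rose by a log2 fold change of 2.45 ± 0.37 (SE; edgeR's quasi-likelihood test, Benjamini-Hochberg adjusted p = 0.0425). *Tpm2* was 10325 and 7956 CPM against 2999 and 3965 CPM, a log2 fold change of 1.57 ± 0.20 (edgeR adjusted p = 0.0351). *Acta2* was 17979 and 16766 CPM against 10504 and 9894 CPM, a log2 fold change of 0.93 ± 0.13 (edgeR adjusted p = 0.0425). These 3 of 10 members rose, where 0.147% of 4758 genes tested were called higher, 7 genes in all, and 0.189% lower.

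Of the other members, *Actg2*, *Myh11*, *Tagln* and *Tpm1* had higher values in both caloric restriction mice than in both controls but did not pass the test, and *Cnn1* and *Des* overlapped between the groups. How many of the 4758 genes tested separate in this way was not counted, so the separation is a description only. *Actg2* was 2856 and 2131 CPM against 1011 and 1568 CPM (log2 difference 1.15 ± 0.26, edgeR adjusted p = 0.130). Over the 10 members the median log2 fold change was 0.79 and 9 were above 0, beside a median of 0.03 over all genes tested. *Tnnt1* had a log2 fold change of -0.53 ± 0.51 (edgeR adjusted p = 0.702), with 201 and 186 CPM against 440 and 72.1 CPM, so that its controls lay on both sides of the caloric restriction mice. Without the first control mouse its log2 difference was 1.69, and without the second -1.08, neither past the test. The difference between the 2 troponin T genes was not itself tested. The UMI ratio of *Tpm2* to *Tpm1* was 1.63 and 1.93 in the caloric restriction mice and 0.379 to 1.37 in the 15 remaining mice.

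Of the wider lists, the skeletal actin *Acta1* rose, from 231 and 270 CPM in the controls to 2374 and 1384 CPM (log2 fold change 3.11 ± 0.34, edgeR adjusted p = 0.0266). It was the only one called of the 5 genes of the striated list that passed the count filter. *Tnnc2* was 295 and 147 CPM against 21.3 and 36.0 CPM, with a log2 difference of 3.34 ± 0.59 that did not pass (edgeR adjusted p = 0.0718). None of 26 smooth muscle regulators tested was called, with a median log2 fold change of 0.33 and 18 above 0, and none of 11 non-muscle paralogs, with a median of -0.53 and 3 above 0.

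The call for *Acta2* was lost without the second control mouse, which has 17 muscle-gate cells (edgeR adjusted p = 0.0647), and with DESeq2 (adjusted p = 0.0778), whereas *Tpm2* and *Tnnt2* kept theirs in both. Counting only cells with at least 3 gate UMIs left *Tpm2* as the one member called, counting every cell with a gate UMI left *Tnnt2*, and leaving out the second caloric restriction mouse gave 8 members. *Acta2* was also higher outside the muscle gate in these mice, at 2326 and 2635 CPM in pericyte-gate cells against 815 and 993 CPM in the controls (the second with 5 such cells), and at 513 and 799 CPM in fibroblast-gate cells against 121 and 198 CPM. *Tnnt2* was at 0 in the pericyte-gate cells of all 4 mice, but from 5 to 30 cells each, with upper 95% limits of 51.0 to 305 CPM. It was at most 2.19 CPM in their fibroblast-gate cells. In immune-gate cells, taken as the background of free RNA, *Acta2* was 195 and 77.6 CPM against 68.6 and 15.6 CPM in the controls. *Tnnt2* was at most 2.41 CPM there. Muscle-gate cells made up 13.02% and 20.2% of cells in the caloric restriction mice and 8.42% and 9.77% in the controls, and pericyte markers summed to 191 and 349 CPM in their muscle-gate cells against 593 and 559 CPM. Fibroblast markers summed to 1208 and 1470 CPM there, against 2044 and 2217 CPM in the controls. Of the gate genes, *Hhip* was 158 and 147 CPM against 511 and 415 CPM, and *Myl9* 5724 and 5428 CPM against 3368 and 4001 CPM. The part of these differences and of the immune-gate background in the rise was not tested. Secretory transcripts in muscle-gate cells were 47308 and 4391 CPM against 6732 and 3965 CPM, and with those genes left out the same 3 members were called.

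**Figure D4:**
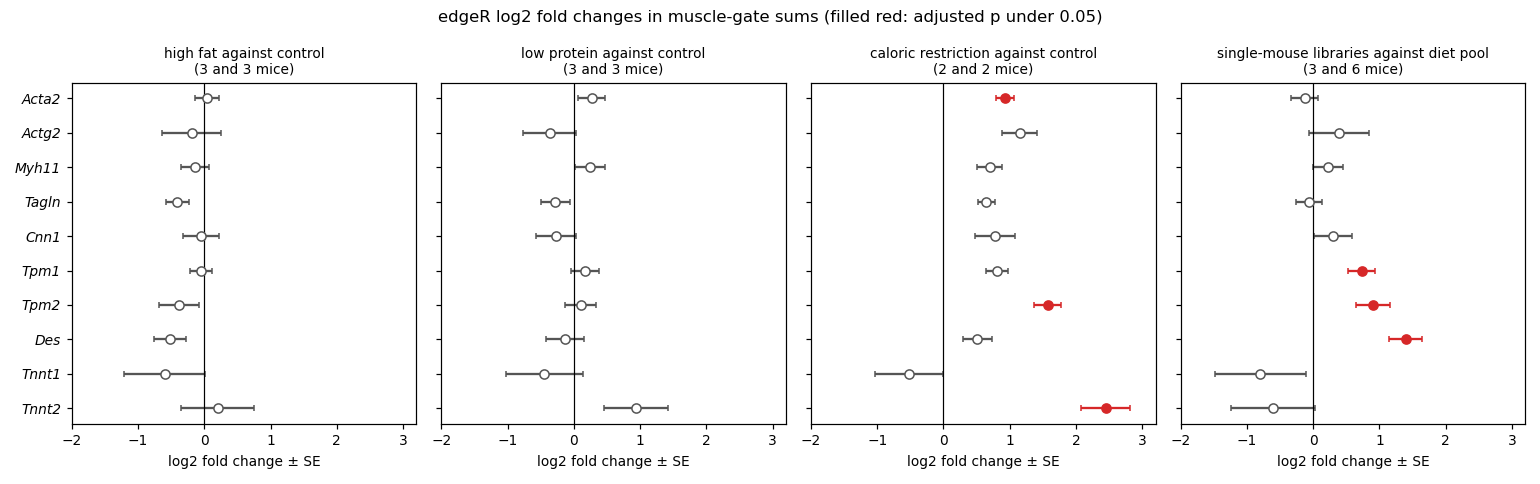
Log2 fold change with its SE for each of the 10 genes in muscle-gate sums, from edgeR, for high fat, low protein and caloric restriction against control and for the diet single-mouse libraries against the diet pool; filled red points passed an adjusted p of 0.05. *Acta2*, *Tpm2* and *Tnnt2* are filled under caloric restriction and *Tpm1*, *Tpm2* and *Des* in the library comparison, and no point is filled under high fat or low protein.

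Neither the high fat nor the low protein diet moved a member past the threshold. These comparisons used 3 mice a group, the library set being a covariate, and share their control mice. Under high fat, 0 of 10 members were called, where 0% of 1351 genes were, and the largest log2 differences were -0.60 ± 0.61 for *Tnnt1* and -0.51 ± 0.24 for *Des*. *Tnnt2* was 203, 52.0 and 168 CPM under high fat and 170, 72.1 and 51.7 CPM in the controls. Under low protein, 0 of 10 members were called, where 0% of 1327 genes were, and *Tnnt2* had the largest difference, 0.94 ± 0.49 (edgeR adjusted p = 0.999), with 448, 114 and 78.3 CPM. The low protein values of *Tnnt2* overlapped those of the controls. Muscle-gate sums in these comparisons held 38301 to 281787 UMIs, so the lower *Tnnt2* values rest on few UMIs. At an unadjusted p under 0.05, edgeR gave 76 genes under high fat, *Tagln* among them, and 61 under low protein, and DESeq2 called 1 gene and 0 genes.

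FVB/NJ mice on the same 3 diets could be compared across library sets, 3 single-mouse libraries against 6 diet pool mice. *Des* was 3100, 2660 and 3342 CPM in the single-mouse libraries and 818 to 2036 CPM in the pool, with no overlap (log2 fold change 1.39 ± 0.25, edgeR adjusted p = 0.00166). *Tpm1* rose by 0.73 ± 0.20 (edgeR adjusted p = 0.0217) and *Tpm2* by 0.90 ± 0.26 (edgeR adjusted p = 0.0290). These 3 of 10 members were higher in the single-mouse libraries, where 6.35% of 1970 genes were called higher and 8.48% lower. *Acta2* and *Tagln* differed little, with log2 differences of -0.13 ± 0.20 and -0.06 ± 0.20. Of the other lists, *Acta1* (1.85 ± 0.50), *Actb* (1.06 ± 0.16), *Synpo2* (0.99 ± 0.31) and the actin-binding *Cald1* (0.94 ± 0.20) rose, and the integrin *Itga8* (-2.49 ± 0.51) and *Pdlim3* (-2.07 ± 0.31) fell, each with an adjusted p of at most 0.0438 in edgeR.

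That comparison also depended on scaling. Secretory transcripts took up 76265 to 228715 CPM of the muscle-gate sums in the single-mouse libraries and 2916 to 13197 CPM in the 6 pool mice. With library size in place of TMM, the median log2 fold change of all genes was -0.34 instead of -0.02, 64 genes were called higher and 291 lower instead of 125 and 167, and *Des* alone of the members was called. *Des* alone was also called with DESeq2, without the count filter and without the control or the low protein single-mouse library. With the secretory genes left out before scaling, the 3 members were called as before.

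Age could be tested in 6 aging pool mice only, since the others had fewer than 10 muscle-gate cells. Just 1 of the 6 was 3 months old, and those of 28 months were all rapamycin-treated. Rapamycin was a covariate, so an age of 28 months is told apart from treatment only through 1 treated mouse of 20 months. None of the 8 members tested was called, where 0% of 1223 genes were and 121 had an unadjusted p under 0.05 in edgeR, while DESeq2 called 17. On simulated counts, with the same dispersion for every gene, this test missed nearly all of the smaller changes, unlike the diet tests. Its lack of calls therefore does not show a lack of change. Changes as small as the member differences under high fat and low protein were not simulated. The lack of calls under those diets does not show a lack of change either. *Tnnt1* and *Tnnt2* did not pass the count filter. *Acta2* in these mice was 2509 CPM at 3 months, 18376 and 7651 CPM at 20 months, 13744 CPM at 20 months with rapamycin, and 5477 and 5649 CPM at 28 months with rapamycin. The mouse of 3 months was also the one with 152793 CPM of secretory transcripts in its muscle-gate sum, against 6078 to 9692 CPM in the others, so its low muscle levels and its age cannot be told apart.

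*Actg2* was also abundant in epithelial-gate cells of the young and the old individual. In epithelial-gate cells of the old individual it was 1024 CPM, above the 946 CPM of its muscle-gate cells, and in those of the young individual 353 CPM, while in the other 21 mice it was 0 to 6.16 CPM with 12 mice at 0. The signal lay in the cells with epididymal transcripts, a split chosen after the values were seen. Cells with at least 10000 CPM of *Lcn8* and *Lcn9*, lipocalins of the epididymal epithelium, held 2413 CPM of *Actg2* in the old and 2422 CPM in the young individual, and 1498 of 1552 and 287 of 290 of them had an *Actg2* UMI. Cells under 1000 CPM of these lipocalins held 34.2 and 45.5 CPM. The other smooth muscle genes did not follow: in the same lipocalin-rich cells *Acta2* was 90.1 and 59.8 CPM, *Myh11* 29.1 and 16.3 CPM and *Tnnt2* 3.67 and 0.544 CPM, lower than in the remaining epithelial-gate cells for each. Over the whole epithelial gate the other 9 members kept to levels between 3.92 and 260 CPM in both mice. In immune-gate cells, taken as the background of free RNA, *Actg2* was 93.9 CPM in the old (24 UMIs) and 9.99 CPM in the young individual. The other 21 mice had 0 to 19.2 CPM there. The part of free *Actg2* RNA in the muscle-gate values of this gene was not tested.

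**Figure D5:**
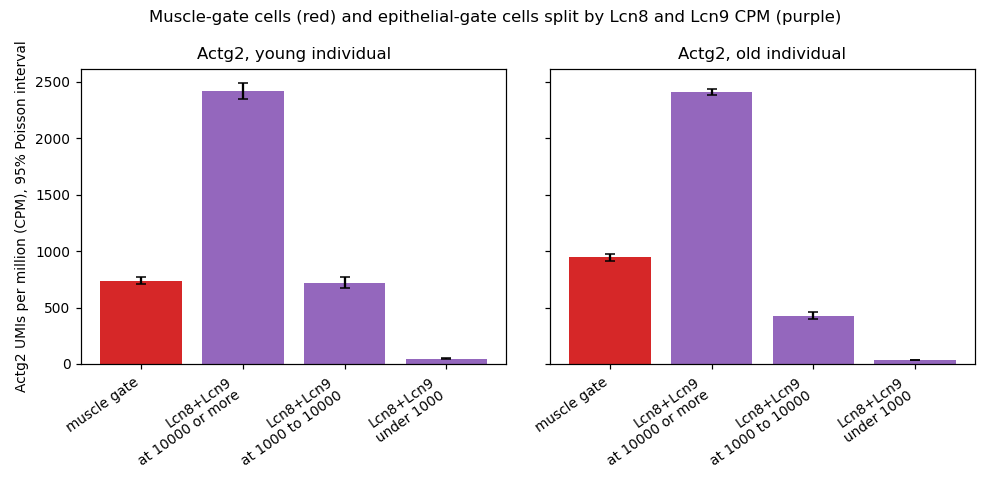
*Actg2* level (CPM, axis from 0, whiskers the 95% Poisson interval of the count) in muscle-gate cells (red) and in epithelial-gate cells split by their *Lcn8* and *Lcn9* level (purple), for the young individual (left) and the old individual (right). In both mice the lipocalin-rich cells stand at 2422 and 2413 CPM, above the muscle-gate cells, and the cells under 1000 CPM of the lipocalins are at 45.5 and 34.2 CPM.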

How the data were processed

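UMI counts per gene and cell from 23 matrices (10x 3′ chemistry) were used as the authors deposited them. Per the file headers, the 18 pool matrices came from Cell Ranger 6.0.1, with mice told apart by tags, and no version is given for the 5 single-mouse matrices. The submitters name mm10. The conditions of mice inside a pool come from the table names matched to the sample list of the study, and 12 tag rows were left out. Genes were matched by Ensembl ID.

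Barcodes were kept from 500 detected genes and 200 UMIs upward when mitochondrial UMIs did not exceed 10%. Each was assigned to the one of 7 marker gates with the most UMIs, ties being left out. Doublets were not removed here. Counts were summed per mouse and gate where at least 10 cells were present. Mice are separate animals, and the sums are of cells, so fewer cells and less RNA per cell both widen the counting error. Depth limits what could be seen: 0 counts allow up to 3 counts of the total. Intervals are exact 95% Poisson or binomial and cover counting error only. Shares were taken after thinning each cell to 1500 UMIs.

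Sums were tested with edgeR 4.0.16 (R 4.3.3; filterByExpr, TMM, quasi-likelihood test, Benjamini-Hochberg adjustment over all genes tested, threshold 0.05), and DESeq2 1.42.0 was an alternative. The tests were checked on simulated counts. The age test fits a slope per month, with rapamycin as a covariate. The text names the 10 members, every gene of the contractile lists that passed a test, the 3 most abundant of each list and the 5 most like *Tnnt1* and *Tnnt2*. Named outside this rule, after their values were seen, were *Myocd*, *Casq2*, the troponin partners, *Ttn* and the striated myosins. The members and lists were chosen with earlier results of these data known. Alternatives were library size scaling, no count filter, other gates, at least 200 genes, a replicate block and leaving out each mouse. Leaving out secretory genes, and diet pool mice only, were chosen after seeing the data, as were the ratios between genes and the splits by *Actg2* and by lipocalins.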

Additional observations from a re-analysis of the deposited data

Results flagged for a closer look

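Of 47 groups of 4 to 10 mice examined for a mouse far from the rest, 8 had one. The rule flags about 1 in 20 groups of normally distributed values. Many values here are at or near 0 and the groups share mice, so 8 of 47 does not show an excess over chance. The groups mix ages or diets. In muscle-gate cells, *Tnnt2* was 207 CPM in the second untreated aging pool mouse of 20 months, and the next of 6 mice had 31.5 CPM. In pericyte-gate cells of 7 diet pool mice, *Myh11* was 955 CPM in the second caloric restriction mouse (next 471 CPM) and *Cnn1* was 324 CPM in the first (next 95.6 CPM). In fibroblast-gate cells, *Actg2* was 16.7 CPM in the second caloric restriction mouse (next of 8 mice 3.65 CPM). Among 10 aging pool mice, the second untreated mouse of 28 months was high in fibroblast-gate cells for *Tagln*, at 327 CPM (next 152 CPM), and for *Tpm2*, at 143 CPM (next 94.0 CPM). Its *Actg2* value of 2.47 CPM, with the others at 0, is 1 UMI (95% Poisson interval 0.0626 to 13.8 CPM) and cannot be told apart from 0. The second rapamycin-treated mouse of 20 months had 26.3 CPM of *Myh11* there (next 9.25 CPM).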

How the results depend on the processing

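All 10 members stayed higher in muscle-gate than in pericyte-gate cells under each alternative run. The members were chosen by their levels in these cells and *Cnn1* is a gate gene, so that order is a description only. No called member changed sign. Under caloric restriction, 3 members and 16 genes were called. These became 5 and 133 without the count filter, 1 and 7 with a gate of at least 3 UMIs, 1 and 9 with every cell holding a gate UMI, and 0 and 0 with the replicate block. The 2 mice sharing a number did not deviate together (correlations from -0.0529 to 0.0207 over the groups), so the block pairs mice by number alone. Under it the log2 fold changes were 0.93 for *Acta2*, 1.56 for *Tpm2* and 2.58 for *Tnnt2*. Library size scaling called 54 genes, 11 higher and 43 lower against 7 and 9, and moved the median of all genes to -0.11. Leaving out 1 mouse gave 3 to 8 members and 12 to 135 genes, the highest without the second caloric restriction mouse, and 46 and 71 genes without the second control and the first caloric restriction mouse. In the single-mouse libraries, 3 members became 1 with library size, DESeq2, no filter, every cell with a gate UMI or at least 200 genes, and 1 to 3 without 1 mouse. The 292 genes called became 465 with every cell with a gate UMI, and 145 to 272 without 1 mouse, 145 without the control and 164 without the high fat single-mouse library. No paired analysis was possible because single-mouse libraries share no number with the pool. No member was called for age, high fat or low protein under any alternative. Genes called for age rose from 0 to 17 with DESeq2, 42 without the filter and 0 to 24 without 1 mouse. For high fat they were 1 with DESeq2, 10 without the filter, 3 with every cell with a gate UMI, 1 with diet pool mice only and 0 to 10 without 1 mouse. For low protein they were 13 without the filter, 1 with the replicate block and 0 to 1 without 1 mouse. The age test could not be fitted with the gate of at least 3 UMIs. The cause of these changes was not tested. Leaving out the secretory genes changed no call of a member.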

Other observations

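The ratio of *Acta2* to *Actg2* UMIs, the vascular against the enteric smooth muscle actin, was 14.4 in muscle-gate cells of the young and 12.0 in those of the old individual, 6.30 and 7.87 in the caloric restriction mice and 6.31 to 36.9 in the remaining 15 mice. The part of free *Actg2* RNA in these ratios was not tested. Serum response factor (*Srf*), the partner of myocardin, was 68.9 and 82.6 CPM in the individuals and 0 to 81.1 CPM, median 26.1 CPM, in the other 17 mice.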
